A study of Mus musculus with 10 samples.

Results

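The muscle splicing regulators were a set of 10 genes of the 23337 in the deposited gene table, chosen by name as the RNA-binding proteins and the kinase known for alternative splicing in striated muscle: Rbm20, Rbm24, Mbnl1, Mbnl2, Celf1, Celf2, Rbfox1, Rbfox2, Srpk3 and Ptbp1. All 10 were in the table, and all 10 were among the 13084 genes with enough counts to be tested. RNA from the right atrium of adult mice was sequenced, from 4 control and 6 Tbx5 mutant mice by their labels, to measure gene expression after removal of TBX5, a T-box transcription factor of the atrium. In the mutant genotype, a tamoxifen-inducible Cre recombinase expressed from the ubiquitous R26 promoter excised exon 3 of Tbx5, so that the deletion was not restricted to cardiomyocytes. Tamoxifen was given by injection on 3 days, 0.167 mg on each, with collection of the atria 1 week later. The age label read 8 to 10 weeks for every mouse, whereas the protocol text gave 6 to 8 weeks, and the strain label was mixed. The labels call the control genotype only Control and do not say whether those mice carried the Cre.

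Alternative splicing joins the exons of a gene in different combinations, and proteins that bind near an exon promote or prevent its inclusion. RBM20 and RBM24 act in heart muscle, RBM20 mainly by keeping exons of titin and calcium-handling transcripts out of the adult message. MBNL and CELF proteins oppose each other on many exons that switch between fetal and adult muscle, RBFOX proteins bind GCAUG and act on muscle and neuronal exons, SRPK3 is a muscle kinase that phosphorylates SR splicing factors and is known as a target of MEF2, and PTBP1 is a repressor of many tissue-specific exons. Counts per gene add up all splice forms, so the values below are amounts of transcript and measure no splicing.

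The libraries held 5703775 to 7095141 counts over genes. In the mutant mouse M3, the ribosomal RNA precursor gene Rn45s took 38.9% of the counts and left 3484550 outside it, against 0.268% to 1.49% in the other 9 libraries. The labelled sexes of all 4 control mice went against their counts of the sex-linked Xist and Ddx3y, and those of the 6 mutants did not. By these genes, any fit below within a labelled sex set controls and mutants of opposite sex against each other. Such a fit cannot tell sex from group. Tbx5 itself, counted over the whole gene and not over the excised exon, ranged from 184 to 224 counts per 1000000 of the scaled library size (CPM) in the mice labelled control and from 275 to 475 CPM in the mice labelled Tbx5 mutant. It was higher in the labelled mutants by a log2 fold change of 0.94 ± 0.15 (SE, edgeR adjusted p = 0.000495). A gene count includes reads outside the excised exon and does not check the deletion, so the groups are named here by their labels, and each direction is that of the labelled mutants relative to the labelled controls. Of the fixed markers of atrial cardiomyocytes, 4 of 5 were called lower in the labelled mutants, and their summed level was 41423 to 46938 CPM in the controls and 17732 to 33551 CPM in the mutants. Of 4 ventricular markers, 2 were called higher, with summed levels of 189 to 294 CPM in the controls and 785 to 1586 CPM in the mutants, and Irx4 was at 0 in every control. Of 4 smooth muscle markers, 2 were called higher, with summed levels of 98.9 to 150.2 CPM and 159 to 583 CPM. None of 5 endothelial markers was called. Of 10 skeletal muscle markers, 2 had enough counts to be tested and none was called. Their summed level, nearly all from the muscle creatine kinase gene Ckm, was 694 to 1167 CPM in the controls and 1234 to 1634 CPM in the mutants, without overlap, and Ckm passed by adjusted p alone (log2 fold change 0.58, edgeR adjusted p = 0.00796). The skeletal muscle genes Myod1 and Pax7 were at 0 in all 10 libraries. The part of these differences in the results below was not tested.

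Rbfox1 was the regulator with the largest difference, and its paralog Rbfox2 was not called. Both genes are near copies in the part that binds RNA, and reads could in principle be assigned to the wrong gene. The sequences of their most alike coding exon are shown to let this be judged. They were read from GRCm38 (mm10) with GENCODE M21: exon 8 of Rbfox1-205 at chr16:7292185-7292277, plus strand, and exon 6 of Rbfox2-204 at chr15:77105577-77105669, minus strand. Capitals mark the 7 positions of 93 at which they differ.
Rbfox1: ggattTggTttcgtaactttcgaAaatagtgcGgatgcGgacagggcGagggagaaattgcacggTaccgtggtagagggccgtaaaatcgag
Rbfox2: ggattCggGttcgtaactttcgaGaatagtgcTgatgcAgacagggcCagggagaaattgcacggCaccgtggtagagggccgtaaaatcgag
The longest run without a difference was 27 bases. None of the 4443 windows of 50 bases in the annotated transcripts of Rbfox1, and none of the 8487 in those of Rbfox2, occurred in any other annotated gene, so a read of that length without errors could be told apart in both.

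A gene was called when its edgeR quasi-likelihood p, adjusted by Benjamini-Hochberg over all genes tested, was below 0.05, its fold change was above 1.5 and its normalized signal, as the authors deposited it, averaged above 1 over the controls. Across the atrium, 15.7% of the 13084 genes were called, 7.16% lower and 8.50% higher in the labelled mutants. Of the 10 regulators, 1 was called lower (Rbfox1) and none higher. By adjusted p alone, 3 of 10 were lower (Rbfox1, Celf2 and Celf1), against 15.0% of all genes, and 1 of 10 was higher (Ptbp1), against 16.3% of all genes. The other 6 did not pass. The 4 controls and 6 mutants did not overlap for 3 of 10 regulators, all lower, where 11.0% of all genes were separated in that direction and 11.7% in the other. The median log2 fold change was -0.16 over the 10 regulators and -0.005 over all genes tested. Neither median was corrected for transcript length, with which log2 fold change was correlated over the tested genes (Spearman rho = -0.32, described below). Without mutant M3, the same 1 regulator was called, and again 3 were lower and 1 higher by adjusted p alone. The labels give each library as a separate mouse, and p-values measure the spread between these mice. In bulk atrium, fewer cells of a type and less RNA per cell cannot be told apart.

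**Figure D1:**
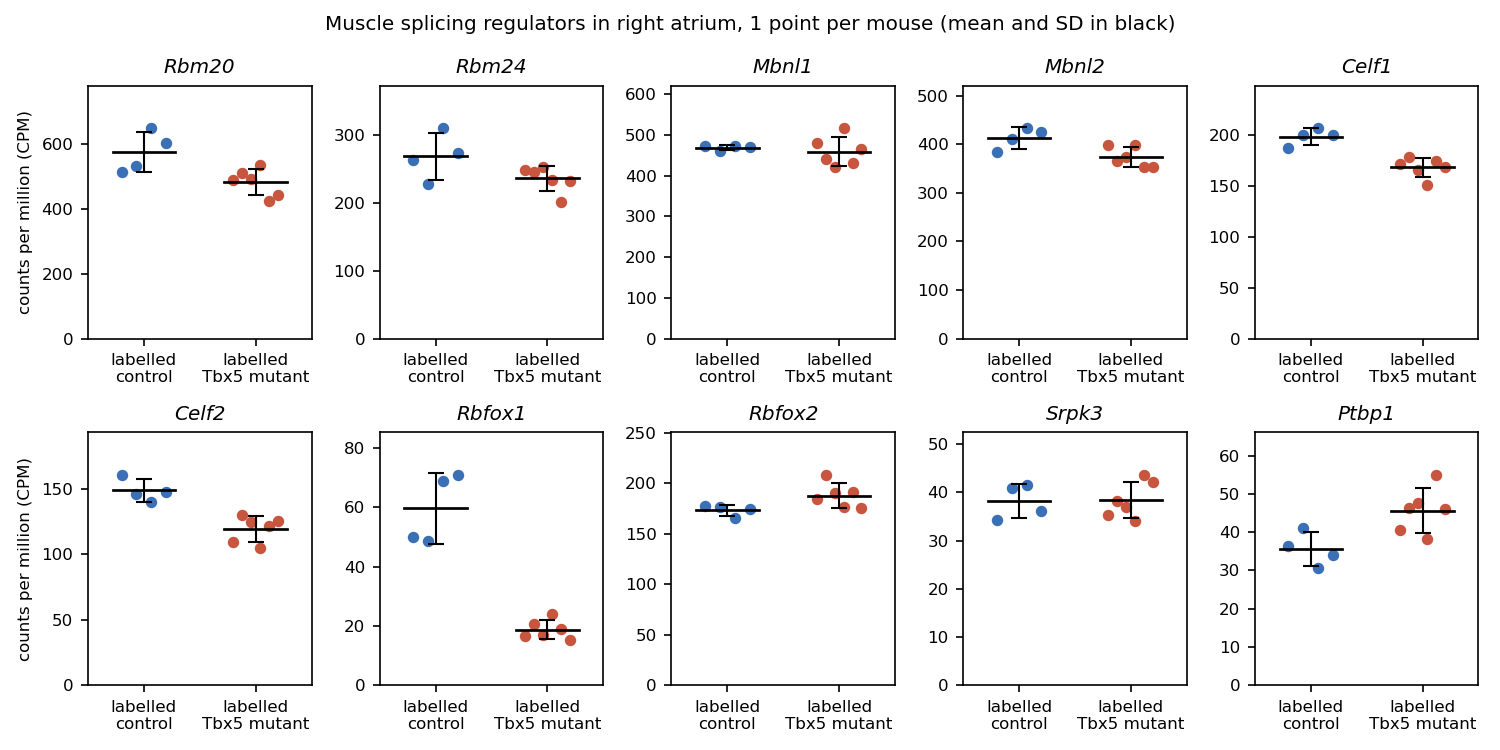
Expression of the 10 regulators in each mouse in CPM of the TMM-scaled library size, with each vertical axis starting at 0, points for the 4 mice labelled control (blue) and the 6 labelled Tbx5 mutant (red), and the mean and SD in black. The groups do not overlap for Celf1, Celf2 and Rbfox1, and for Rbfox1 the highest mutant value of 24.0 CPM lies below the lowest control value of 48.6 CPM.

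Rbfox1 (chr16:5885355-7411526, plus strand) encodes the RBFOX protein of neurons, heart and skeletal muscle. Its level in controls M1, M2, F1 and F2 was 50.2, 48.6, 68.8 and 71.1 CPM. In the mutant mice it ranged from 15.2 CPM in M3 to 24.0 CPM in M1, with a median of 18.0 CPM. Every mutant lay below every control, and the 2 control mice labelled female lay above the 2 labelled male. Rbfox1 fell from 59.7 ± 11.9 CPM (SD, n = 4) to 18.7 ± 3.24 CPM (SD, n = 6). The fitted level was 3.17-fold lower, a log2 fold change of -1.67 ± 0.14 (SE) with a 95% interval from -1.98 to -1.36 and an edgeR adjusted p of 3.18e-06. An exact two-sided permutation test of the mean log2 CPM gave p = 0.00952, the smallest p that the 210 splits of 4 against 6 allow. These values rest on 294 to 525 counts in a control library and 56 to 155 counts in a mutant library. By the size of its fall, Rbfox1 stood at position 116 of the 13084 genes tested. The fall passed the test in each of the 27 alternative fits and lay between -1.33 in the mice labelled male and -1.95 in those labelled female. By Xist and Ddx3y, the controls and mutants in each of these labelled-sex fits were of opposite sex. Of the 5 general cardiomyocyte markers, 1 (Ryr2) was called lower and 2 (Tnnt2 and Actc1) higher. Their summed level was 35990 to 51631 CPM in the controls and 43316 to 51814 CPM in the mutants. Of the 5 atrial cardiomyocyte markers, 4 were called lower, as given above. The part of cardiomyocyte content in the fall of Rbfox1 was not tested. The difference of the Rbfox1 fall between the labelled sexes gave a log2 interaction of 0.63 (edgeR adjusted p = 0.356, unadjusted 0.0189), and with the sexes of the controls exchanged it was -0.37 (edgeR adjusted p = 0.686).

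Rbfox2 (chr15:77078990-77307004, minus strand) encodes the more widely expressed RBFOX protein. It was at 177, 177, 165 and 174 CPM in the controls M1, M2, F1 and F2, and between 176 and 209 CPM in the mutants, with a median of 187 CPM. The groups overlapped, with 4 of 6 mutants above every control. The log2 fold change of 0.12 ± 0.079 (SE, 95% interval -0.05 to 0.29, edgeR adjusted p = 0.283) did not pass the test. After removal of a trend of fold change on transcript length, it was 0.31 and passed (edgeR adjusted p = 0.0124). Within a mouse, Rbfox1 made up 22.0%, 21.6%, 29.4% and 29.0% of the counts of both genes in the controls M1, M2, F1 and F2. It made up 8.16%, 9.00%, 8.15%, 12.0%, 9.07% and 7.99% in the mutants F1, F2, F3, M1, M2 and M3. No mutant reached the lowest control share. These shares are of counts not divided by length, and the longest transcript has 3061 bases for Rbfox1 and 6907 for Rbfox2. Per kilobase of that transcript, the control means were 19.5 CPM for Rbfox1 and 25.1 CPM for Rbfox2. The log2 ratio of Rbfox1 to Rbfox2 CPM differed by -1.77 between the groups (exact two-sided permutation p = 0.00952, adjusted p = 0.0222 over the 7 ratios of regulators compared, which were chosen with the values known). Rbfox1 already separated the groups by itself, so the share and the ratio largely restate its fall and are no separate evidence of a shift between the paralogs. The ratio was not corrected for transcript length.

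**Figure D2:**
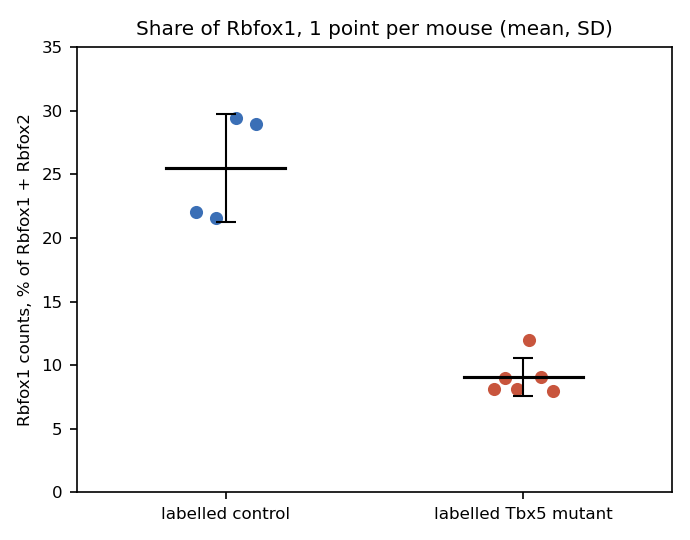
Counts of Rbfox1 as a percentage of the counts of Rbfox1 and Rbfox2 together in each mouse, with the mean and SD in black. The control mice lie between 21.6% and 29.4% and the labelled mutants between 7.99% and 12.0%. Counts are not divided by transcript length, so the percentages are not shares of transcript molecules.

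Celf1 and Celf2 encode the CELF proteins of the adult heart, which promote many fetal splice choices. Celf2 (chr2:6539694-7509563, minus strand) was at 161, 146, 140 and 148 CPM in the controls M1, M2, F1 and F2. It was between 105 and 130 CPM in the mutants, with a median of 123 CPM. Every mutant lay below every control for Celf2. The mean moved from 149 ± 8.73 CPM (SD, n = 4) to 119 ± 9.96 CPM (SD, n = 6), a log2 fold change of -0.32 ± 0.085 (SE, 95% interval -0.50 to -0.13, edgeR adjusted p = 0.0123). Celf1 (chr2:90940382-91019497, plus strand) was at 187, 199, 206 and 199 CPM in the same controls and between 151 and 178 CPM in the mutants, with a median of 170 CPM. Again no mutant reached a control. Its log2 fold change was -0.24 ± 0.078 (SE, 95% interval -0.40 to -0.07, edgeR adjusted p = 0.0320). For each of the 2 genes, an exact two-sided permutation test gave 0.00952, the smallest p allowed.

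Both falls were below the 1.5-fold threshold, and neither remained after transcript length was taken into account. Over the 12950 tested genes with an annotated length, log2 fold change was correlated with the length of the longest transcript (Spearman rho = -0.32, across genes, which are not independent replicates). Celf2, with 8856 bases, and Celf1, with 7851 bases, were the longest of the 10 regulators, against a median of 3468.5 bases over the tested genes. With that trend removed within each library, the log2 fold change was -0.05 for Celf2 (edgeR adjusted p = 0.758) and -0.0068 for Celf1 (edgeR adjusted p = 0.964), whereas that of Rbfox1, with 3061 bases, was -1.70 (edgeR adjusted p = 2.47e-06). Celf1 also lost the adjusted p threshold without control M2, F1 or F2 or without mutant F3 (edgeR adjusted p = 0.0702 to 0.0862), and Celf2 lost it without control M1 (edgeR adjusted p = 0.0514). An antisense transcript, Gm26565, overlaps 7.58% of the exon bases of Celf2. Because the strand setting of the counting is not given in the sources used here, its reads cannot be told apart from those of Celf2.

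**Figure D3:**
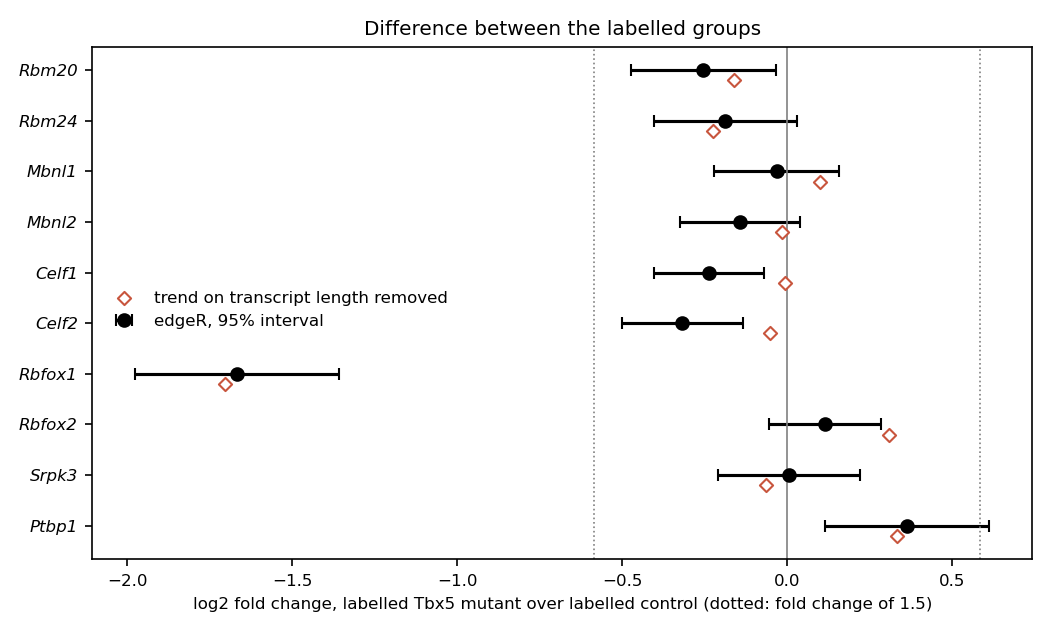
Log2 fold change of each regulator, labelled Tbx5 mutant over labelled control, from the edgeR fit with its 95% interval (black) and after removal of the trend on transcript length (open diamonds); dotted lines mark a fold change of 1.5. Rbfox1 at -1.67 lies apart from the other 9, and the diamonds of Celf1 and Celf2 lie near 0.

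Ptbp1 (chr10:79854427-79864771, plus strand), the repressor of tissue-specific exons, was the only regulator that rose past the adjusted p threshold with all 10 libraries and no length correction. It was at 36.4, 41.0, 30.6 and 34.0 CPM in the controls M1, M2, F1 and F2 and between 38.2 and 55.0 CPM in the mutants, with a median of 46.2 CPM. The groups overlapped, since control M2 lay above the lowest mutants, and 4 of 6 mutants lay above every control. Ptbp1 rose by a log2 fold change of 0.36 ± 0.12 (SE, 95% interval 0.11 to 0.61, edgeR adjusted p = 0.0285; exact two-sided permutation p = 0.0286), below the 1.5-fold threshold. The rise did not pass without control F1 (0.30, edgeR adjusted p = 0.0958), without control F2 (0.35, edgeR adjusted p = 0.0662) or in the mice labelled male alone (0.27, edgeR adjusted p = 0.346). It also missed with replicate numbers fitted and the length trend removed together (0.31, edgeR adjusted p = 0.0611). Of the windows of 50 bases in Ptbp1 transcripts, 18.3% also occur in the copies Gm4900 and Gm18815 or in overlapping antisense genes, and its count is uncertain by what the authors' counting did with such reads. The leukocyte markers, all 4 of those tested, were called higher in the same mice, with summed levels of 164 to 235 CPM in the controls and 276 to 375 CPM in the mutants. Of 5 fibroblast markers, 2 (Col1a1 and Col1a2) were called higher (2443 to 2980 CPM against 2933 to 3995 CPM summed over the 5). The other fibroblast markers were not called. Pdgfra was lower by adjusted p alone (log2 fold change -0.40, edgeR adjusted p = 0.0152). Dcn (-0.012, edgeR adjusted p = 0.952) and Tcf21 (0.57, edgeR adjusted p = 0.0618) did not pass. The part of leukocytes and fibroblasts in the difference of Ptbp1 was not tested.

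Rbm20 and Rbm24 are regulators of the heart muscle program. Rbm20 (chr19:53677306-53867080, plus strand) was at 516, 532, 650 and 604 CPM in the controls M1, M2, F1 and F2 and between 426 and 534 CPM in the mutants, with a median of 491 CPM. Mutant M1 was inside the control range and the other 5 mutants were below it. The log2 fold change of -0.25 ± 0.10 (SE) had a 95% interval from -0.47 to -0.03 that left out 0, but the edgeR adjusted p over all genes of 0.0751 missed the threshold. The same difference passed with DESeq2 (-0.25, adjusted p = 0.0325) and without mutant M1 (-0.29, edgeR adjusted p = 0.0461). It was smaller with the length trend removed (-0.16, edgeR adjusted p = 0.211) and without control F1 (-0.19, edgeR adjusted p = 0.223). Rbm24 (chr13:46418434-46431095, plus strand) was at 264, 227, 310 and 274 CPM in the controls and between 202 and 253 CPM in the mutants, with a median of 240 CPM. Control M2 lay inside the mutant range. Its log2 fold change of -0.19 ± 0.10 (SE, 95% interval -0.40 to 0.03, edgeR adjusted p = 0.175) did not pass. The log2 ratio of Rbm20 to Rbm24 differed by -0.07 between the groups (exact two-sided permutation p = 0.305, adjusted p = 0.356 over the 7 ratios).

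Mbnl1 and Mbnl2 encode the muscleblind proteins, which promote adult splice choices. Mbnl1 (chr3:60472830-60629750, plus strand) was at 473, 460, 472 and 470 CPM in the controls and between 421 and 517 CPM in the mutants, with a median of 453 CPM. The 4 controls lay within the mutant range, and the mutants spread more widely, with an SD of 35.9 CPM against 6.03 CPM. The log2 fold change was -0.03 (95% interval -0.22 to 0.16, edgeR adjusted p = 0.812), an interval that leaves out a 1.5-fold change in either direction. Mbnl2 (chr14:120275669-120431697, plus strand) was at 384, 410, 434 and 424 CPM in the controls and between 353 and 399 CPM in the mutants, with a median of 370 CPM. Control M1 alone lay among the mutants. The log2 fold change of -0.14 ± 0.085 (SE, edgeR adjusted p = 0.217) did not pass, while the exact two-sided permutation test for this gene alone gave p = 0.0381.

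Because MBNL and CELF proteins oppose each other on shared exons, the ratios of Mbnl1 to Celf2 and to Celf1 were also compared within each mouse. These ratios were chosen with the values known, and Mbnl2 was not set against a Celf gene. Celf1 and Celf2 already separated the groups by themselves, so the ratios largely restate their falls and measure no balance of the families. The log2 ratio of Mbnl1 to Celf2 CPM ran from 1.56 to 1.75 in the controls and from 1.75 to 2.30 in the mutants. The mean difference was 0.28 (exact two-sided permutation p = 0.00952, adjusted p = 0.0222 over the 7 ratios). For Mbnl1 to Celf1 the difference was 0.20 (exact two-sided permutation p = 0.0286, adjusted p = 0.05). Both ratios hold genes whose fold change moved when the length trend was removed, and Mbnl1 then differed by 0.10. The ratios of Mbnl1 to Mbnl2 (0.11, adjusted p = 0.147) and of Celf1 to Celf2 (0.08, adjusted p = 0.362) did not differ beyond the spread in the exact permutation tests.

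Srpk3 (chrX:73774405-73778925, plus strand), the muscle SR protein kinase, was at 34.3, 40.9, 41.5 and 36.1 CPM in the controls M1, M2, F1 and F2. In the mutants it ranged from 34.1 to 43.7 CPM, with a median of 37.5 CPM. The groups overlapped over nearly the whole range. The log2 fold change was 0.006 (95% interval -0.21 to 0.22, edgeR adjusted p = 0.971). In the same libraries, 2 of the 3 MEF2 factors tested were called lower, against 7.16% of all genes tested. Mef2a, a MEF2 transcription factor abundant in muscle, fell from 147 ± 23.3 to 90.2 ± 9.82 CPM (SD; log2 fold change -0.70, edgeR adjusted p = 0.000414). Mef2d fell from 37.3 ± 1.83 to 23.6 ± 2.38 CPM (SD; log2 fold change -0.66, edgeR adjusted p = 0.000203). Mef2c, at 128 ± 11.0 and 118 ± 13.6 CPM, did not pass (edgeR adjusted p = 0.433), and Mef2b had too few counts to be tested. A relation of these factors to the level of Srpk3 was not tested.

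Levels of different regulators were compared per length, as CPM per kilobase of the longest annotated transcript. In the controls Rbm20 was the highest at 118 ± 12.8 CPM per kilobase (SD, n = 4), followed by Rbm24 at 87.1 ± 11.1, Mbnl1 at 83.0 ± 1.07 and Mbnl2 at 74.3 ± 3.92. Rbm20 lay above the range of the others in each control, whereas Rbm24 overlapped both Mbnl1 and Mbnl2 and could not be placed relative to them. Celf1 (25.2 ± 1.02) and Rbfox2 (25.1 ± 0.808) formed the next level and overlapped each other. Rbfox1 (19.5 ± 3.89), Celf2 (16.8 ± 0.986), Srpk3 (14.1 ± 1.31) and Ptbp1 (11.2 ± 1.39) made up the lowest, with overlap between neighbours in that order except between Celf2 and Srpk3. In the labelled mutants Rbfox1 came last, at 6.11 ± 1.06 CPM per kilobase (SD, n = 6), below every mutant value of the other 9, and Ptbp1, at 14.4 ± 1.86, came seventh in order of the means, although its range overlapped those of Srpk3 and Celf2. Over the union of all annotated exons, Mbnl1 was instead at 25.1 and Celf2 at 5.74 CPM per kilobase in the controls, so the order depends on which transcripts are taken.

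**Figure D4:**
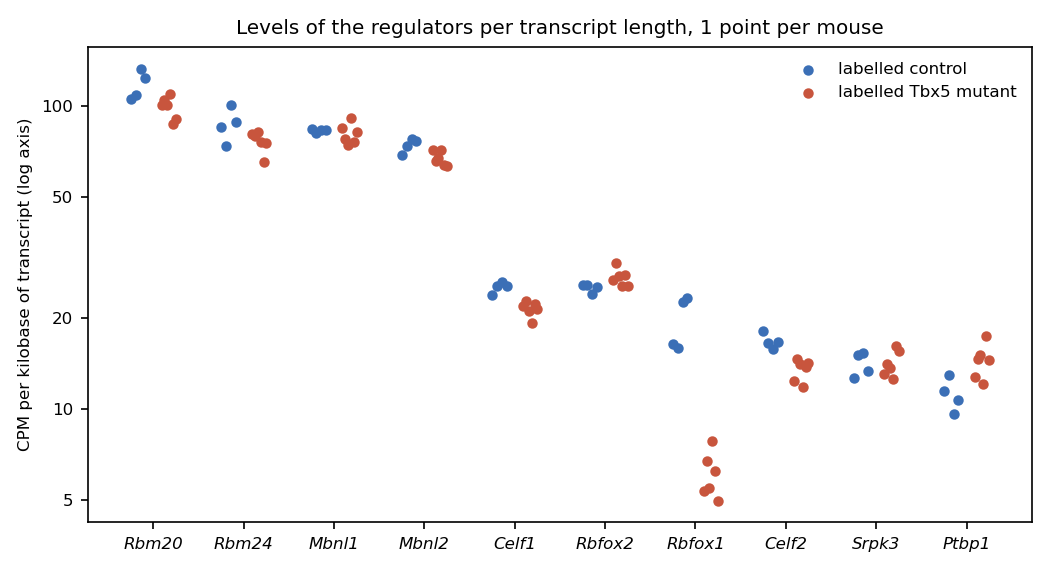
Level of each regulator in CPM per kilobase of the longest annotated transcript (log axis), with 1 point per mouse, controls in blue and labelled mutants in red, in the order of the control means. Rbm20 is highest, and Rbfox1 moves from 19.5 in the controls to 6.11 in the labelled mutants, the lowest of the 10.

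Other genes of the splicing machinery were described by fixed lists, by their counts against the shares of all genes given above and with no test of a list. Of 11 paralogs of the regulators, 8 were tested. Mbnl3, the third muscleblind gene, was called higher, on only 4 to 23 counts per library, and rose from 0.923 ± 0.424 to 2.26 ± 1.06 CPM (SD; log2 fold change 1.33 ± 0.41 SE, edgeR adjusted p = 0.0232). The other 7 were not called. None of 12 SR proteins tested, the general activators of exon inclusion, was called. The SR protein with the smallest p was Srsf2, which rose by a log2 fold change of 0.35 (edgeR adjusted p = 0.00629), and the next was Tra2b at 0.32 (edgeR adjusted p = 0.0547). None of the 6 other SR protein kinases passed, and those with the smallest p were Clk1 (-0.27, edgeR adjusted p = 0.115) and Dyrk1a (-0.18, edgeR adjusted p = 0.120). Of 23 hnRNP proteins, which often repress exons, none was called, with Hnrnpk rising by 0.36 (edgeR adjusted p = 0.00324) and Pcbp2 falling by a log2 fold change of -0.57 (edgeR adjusted p = 0.0187).

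Srrm4, Nova2 and Snrpd2 were the genes called in the remaining lists of splicing proteins. Of 20 other tested regulators of alternative splicing, 2 were called lower. Srrm4, which promotes neuronal microexons, had 10 to 46 counts per library. It fell from 5.50 ± 1.10 to 2.28 ± 0.551 CPM (SD; log2 fold change -1.28, edgeR adjusted p = 0.000872). Nova2, on 3 to 28 counts per library, fell from 3.56 ± 0.624 to 1.65 ± 0.878 CPM (SD; log2 fold change -1.03, edgeR adjusted p = 0.0251). The markers of Schwann cells and neurons were near the limit of detection in both groups, with a summed level of 9.14 to 13.0 CPM in the controls and 7.35 to 12.4 CPM in the mutants, and neither of the 2 tested was called. Of 32 tested core spliceosome genes, 1 was called, Snrpd2, an Sm protein of the small nuclear ribonucleoproteins, which rose from 12.2 ± 1.41 to 18.7 ± 2.75 CPM (SD; log2 fold change 0.62, edgeR adjusted p = 0.00362). The median log2 fold change was 0.14 over the core spliceosome, -0.19 over the other regulators, 0.009 over the SR proteins and -0.02 over the hnRNP proteins. These medians were not corrected for the trend of fold change on transcript length.

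**Figure D5:**
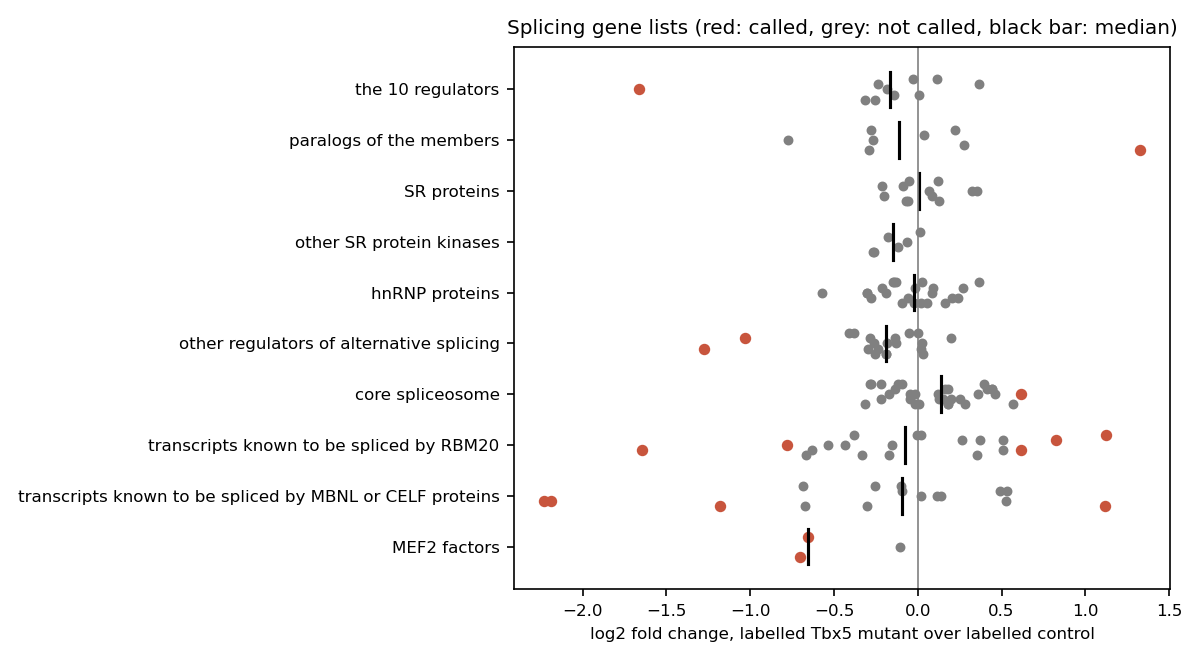
Log2 fold change, labelled Tbx5 mutant over labelled control, of each tested gene in the 10 regulators and the 9 fixed lists, with called genes in red, the others in grey and the list median as a black bar. Rbfox1 at -1.67 is the 1 red point among the regulators, and no SR protein, other SR protein kinase or hnRNP protein is red.

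Transcripts that these proteins are known to splice were counted as well, as amounts and not as splice forms. Of 20 transcripts known as targets of RBM20, all tested, 2 were called lower and 3 higher. Ryr2, the calcium release channel of the sarcoplasmic reticulum, fell from 5328 ± 564 to 1701 ± 469 CPM (SD; log2 fold change -1.65, edgeR adjusted p = 2.99e-05). Pdlim3 (1.12), Tpm1 (0.82) and Mlip (0.61) rose, with edgeR adjusted p of 3.59e-05, 0.000601 and 0.000440. Ttn, named here after its values were seen because titin is the main known target, was at 82383 ± 20258 and 51937 ± 27050 CPM (SD) and did not pass (edgeR adjusted p = 0.146). Of 16 tested targets of MBNL or CELF proteins, 3 were called lower and 1 higher. The chloride channel gene Clcn1 fell from 23.7 ± 6.51 to 5.20 ± 1.79 CPM (SD; log2 fold change -2.19, edgeR adjusted p = 1.33e-05). Atp2a1, the fast-muscle calcium pump, had only 9 to 64 counts per library. It fell from 5.96 ± 2.59 to 2.69 ± 0.863 CPM (SD), a log2 fold change of -1.18 (edgeR adjusted p = 0.0119). Tnnt2, cardiac troponin T, rose from 3332 ± 1057 to 7230 ± 1023 CPM (SD; log2 fold change 1.12, edgeR adjusted p = 0.000872).

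The gene whose expression was most like that of Rbfox1, among 9981 other genes with a mean count of at least 50, was Tbc1d16, with Pearson's r = 0.997 between log2 CPM values over the 10 libraries. That value includes the difference between the groups, since Tbc1d16 was also lower in the labelled mutants (log2 fold change -0.80), and within the 6 mutants r was 0.949. Tbc1d16 was picked for the highest r over these same libraries, so the value within the mutants is not independent of that choice. The points share library depth, and r is a description of these mice. The T-box core motif AGGTGT was searched on both strands in RefSeq promoter windows (GRCm38.p6) from 250 bases before to 50 bases after each annotated start. Promoters were listed for 8 of the regulators, in 14 windows, and not for Rbm20 and Rbfox2. The motif occurred in 3 of 14 windows, 1 each of Celf2, Mbnl1 and Rbm24, against 13.74% of all 32851 promoters, and in neither window of Rbfox1.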

How the data were processed

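Gene counts for 10 right atrial libraries were taken as deposited. Per the labels, RNA was cleared of globin RNA, and both an mRNA kit and ribosomal RNA removal are described. The submitters' processing notes name FastQC, TopHat2 2.0.11, featureCounts and DESeq2 on mm10; annotation and strand setting are not given in the sources used here. The authors also deposited normalized signal (counts divided by a size factor per library), used only for the level threshold. Their pooled mean, fold changes, errors and p-values for the same comparison were not used.

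Counts were fitted over all genes with edgeR 4.0.16 (TMM, filterByExpr, quasi-likelihood test, prior count 0.125) in R 4.3.3; DESeq2 1.42.0 and limma 3.58.1 served as alternatives. CPM refer to the TMM library size. Adjusted p-values are Benjamini-Hochberg over 13084 genes. Members and ratios were tested by exact two-sided permutation of edgeR's log2 CPM, with a prior count of 1 read scaled to library size. Lengths came from GENCODE M21 (22872 of 23337 genes), and the length trend was removed per library with a lowess curve (span 0.4). The fit was tested on simulated data. The members and lists were chosen with earlier results of these data known. The genes named were the 10 regulators, Tbx5, the called genes of each list (or the 2 with the smallest p) and the gene most correlated with a called regulator. Some called list genes are counted but not reported here by name.

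A count of 3, the floor for a gene at 0, was 4.23e-05% to 5.26e-05% of a library, which covers counting error only. The 21 pairs of libraries within a group all differed beyond sampling noise (lowest chi-square per degree of freedom 3.94). No pairing of mice by replicate number was seen: deviations of the 4 same-numbered pairs had a mean correlation of -0.0071, against 0.0013 for the 20 other pairs. So few pairs cannot exclude a pairing. Alternatives covered scaling, tool, prior count, filters, thresholds, sex, replicate block, transcript length and leaving out each mouse.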

Additional observations from a re-analysis of the deposited data

How the results depend on the processing

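Rbfox1 stayed lower and past the threshold in all 27 alternative fits (-1.95 to -1.33 on the log2 scale, adjusted p from 5.88e-22 to 0.00551), and from -1.76 to -1.56 when 1 mouse was left out. The number of regulators called changed from 1 only with no fold threshold, to 4 (3 lower and 1 higher). Genes called numbered 1284 with a mean count of at least 50, 906 at a fold above 2 and 4096 with no fold threshold. Mbnl1 and Srpk3, which passed in no alternative, changed sign. Mbnl1 was 0.10 with the length trend removed, 0.11 with the length trend and replicate block and 0.014 in mice labelled male, and ranged from -0.079 to 0.0033 with 1 mouse left out. Srpk3 was -0.016 with the replicate block, -0.064 with the length trend removed, -0.078 with both and -0.075 in mice labelled female, and ranged from -0.032 to 0.049 with 1 mouse left out. The replicate block fitted replicate numbers, for which no pairing of mice was seen. With it, Rbfox1 was -1.57 (edgeR adjusted p = 0.000263), and 1 regulator and 1957 genes were called. Celf1 then lost the adjusted p threshold (-0.23, edgeR adjusted p = 0.0893). Celf1 passed in 15 of 27 alternatives, Celf2 in 21, Ptbp1 in 23, Rbm20 in 4 and Rbfox2 in 2; the cause was not tested. The counts behind Rbfox1 in the mutants (56 to 155) and behind Mbnl3 (4 to 23) limit the precision of their fold changes.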
